A study of Mus musculus with 35 samples.

Results

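Rbm3 and Cirbp, the cold-inducible RNA-binding genes, are described here in the hippocampus of mice after pilocarpine-induced status epilepticus (SE), a prolonged seizure state. They are 2 of the 43629 gene identifiers in the mRNA count table and were chosen by their measured values, since both were higher in the SE mice at 120 h, so their levels and changes are given as a description with no test. The mRNA of the left hippocampus was sequenced in 8 control and 11 SE mice. The mice were C57BL/6J animals of both sexes aged 6 to 7 weeks, and all of them received scopolamine before the treatment. SE mice were given pilocarpine, a muscarinic agonist, by intraperitoneal injection with a first dose of 350 mg/kg, and control mice were given saline vehicle. The groups were 1 h control (n = 2) and 1 h SE (n = 3), 8 h control (n = 3) and 8 h SE (n = 2), and 36 h SE (n = 3) and 120 h SE (n = 3) with 1 shared control group (n = 3). The 36 h and 120 h comparisons therefore rest on the same 3 control libraries, which the labels name as controls for both times, give the time 36 h and title t0, so that the hour of their collection is uncertain. The room was kept at 25 °C, the methods say that animals were kept warm after seizure induction, and neither the body temperature of the mice nor the hour of collection is given in the sources used here.

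RBM3 and CIRBP are small nuclear and cytoplasmic proteins with a single RNA recognition motif followed by a glycine-rich tail. Mild cooling raises their transcripts in many mammalian cells and warming lowers them, which is the reverse of the heat shock genes that encode chaperones. Both proteins bind mRNA and affect its processing, stability and translation, and RBM3 is known in the hippocampus for preserving synapses after cooling. Their transcripts also follow the daily cycle of body temperature.

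Rbm3 (ENSMUSG00000031167) lies on the minus strand of chromosome X from 7716101 to 7723006 in NCBIM37, the build to which the authors aligned. Cirbp (ENSMUSG00000045193) lies on the plus strand of chromosome 10 from 79628730 to 79635531. A noncoding gene on the other strand, 2900002K06Rik, overlaps Rbm3 by 452 bases, of which 94 are exonic in both. It held 1 to 13 counts per library against at least 454 for Rbm3, and whether the counting used strand is not stated. The bases before the first annotated start of Cirbp are shown because a short element, TCCCCGCC, has been described as responding to mild cold in this promoter. In the line below, from RefSeq on GRCm38.p6 at chr10:80167589-80167838 (plus strand), capitals mark that element and the GC box GGGCGG, the kind of site that Sp1 factors bind, on either strand.

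Cirbp: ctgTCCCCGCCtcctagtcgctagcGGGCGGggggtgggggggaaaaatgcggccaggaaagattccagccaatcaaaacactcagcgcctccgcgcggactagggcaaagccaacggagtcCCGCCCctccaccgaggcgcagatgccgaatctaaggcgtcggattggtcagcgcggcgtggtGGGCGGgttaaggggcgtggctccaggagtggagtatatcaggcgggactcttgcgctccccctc

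The mild cold element matched once, from base -247 to -240 before the start, and 5.38% of the 32851 promoters of the RefSeq table (250 bases before and 50 after a start, both strands searched) hold it. The GC box matched 3 times, beginning at bases -225, -128 and -65, and none of these matches overlapped the mild cold element. A GC box is common in such windows and was found in 35.7% of promoters. The heat shock element in its forms TTCNNGAA and GAANNTTC, the E-box CACGTG that clock factors bind and the cAMP element TGACGTCA had no match at either annotated start of Cirbp. These motifs were found in 8.52%, 7.86%, 7.15% and 1.79% of promoters. The shorter cAMP element TGACG had no match at the first start and 1 at the second, at bases -60 to -56 on the other strand, and 20.8% of promoters hold it. Around the second annotated start, at chr10:80167921-80168220, the mild cold element had no match and the GC box had 4. A match describes these letters only and is no evidence of binding. Rbm3 has no entry in the promoter table.

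The 19 libraries held 8503816 to 28465548 counts. Markers of hippocampal neurons were present in all groups, with a summed level over 13 genes of 4387 to 7454 CPM (counts scaled to a library total of 1000000). Markers of the choroid plexus, the epithelium that makes cerebrospinal fluid beside the hippocampus, varied widely between libraries. Their summed levels over 15 genes were 62.3 to 134 CPM in the shared controls. They ran from 62.7 to 7329 CPM in 36 h SE and from 65.7 to 6685 CPM in 120 h SE. No plexus marker was at 0 in every library of a group. Of the 15, 14 had enough counts to be tested at 36 h and 11 at 120 h. Labelled batches divided the 1 h and 8 h libraries, while all the shared control, 36 h and 120 h libraries were of batch G545. Xist, the transcript of the inactive X chromosome, and the Y-linked gene Ddx3y went against the sex in the study's sample table in 2 of 19 libraries, the 1 h control replicate 2 and the shared control replicate 3. Xist had 0 counts in every 36 h SE library but 8980 and 13899 in shared control replicates 2 and 3, so sex and SE go partly together at 36 h. Rbm3 is itself X-linked.

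Rbm3 was highest at 120 h after SE. In CPM scaled by the trimmed mean of M values (TMM), the 120 h SE mice had 77.9, 74.5 and 60.6, against 46.7, 42.8 and 45.0 in the shared controls. Every 120 h SE library lay above every shared control library. At 36 h the SE mice had 43.3, 35.3 and 39.6 CPM, a range that overlapped that of the same controls. At 8 h the controls had 56.4, 52.1 and 61.0 CPM and the SE mice 53.4 and 53.8, so both SE libraries fell inside the control range. At 1 h the controls had 42.4 and 31.4 CPM and the SE mice 34.5, 34.1 and 37.7, again within the controls. These levels rest on 454 to 1795 counts per library, for which counting alone gives an error of 4.69% at the lowest count and 2.36% at the highest.

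Cirbp was also highest at 120 h after SE, with a smaller distance from its controls. The 120 h SE mice had 81.4, 74.1 and 62.0 CPM and the shared controls 52.7, 56.4 and 54.7, without overlap. The 36 h SE mice had 50.1, 55.9 and 55.3 CPM, spread around the controls. At 8 h the controls had 39.6, 53.7 and 63.1 CPM and the SE mice 44.7 and 68.1, with the largest SDs of Cirbp among the groups. At 1 h the controls had 30.7 and 22.6 CPM and the SE mice 24.9, 21.1 and 34.5. No 1 h library of either group reached the lowest library of any later group. The Cirbp levels rest on 360 to 1884 counts per library, with a counting error of 5.27% and 2.30% at these ends.

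**Figure D1:**
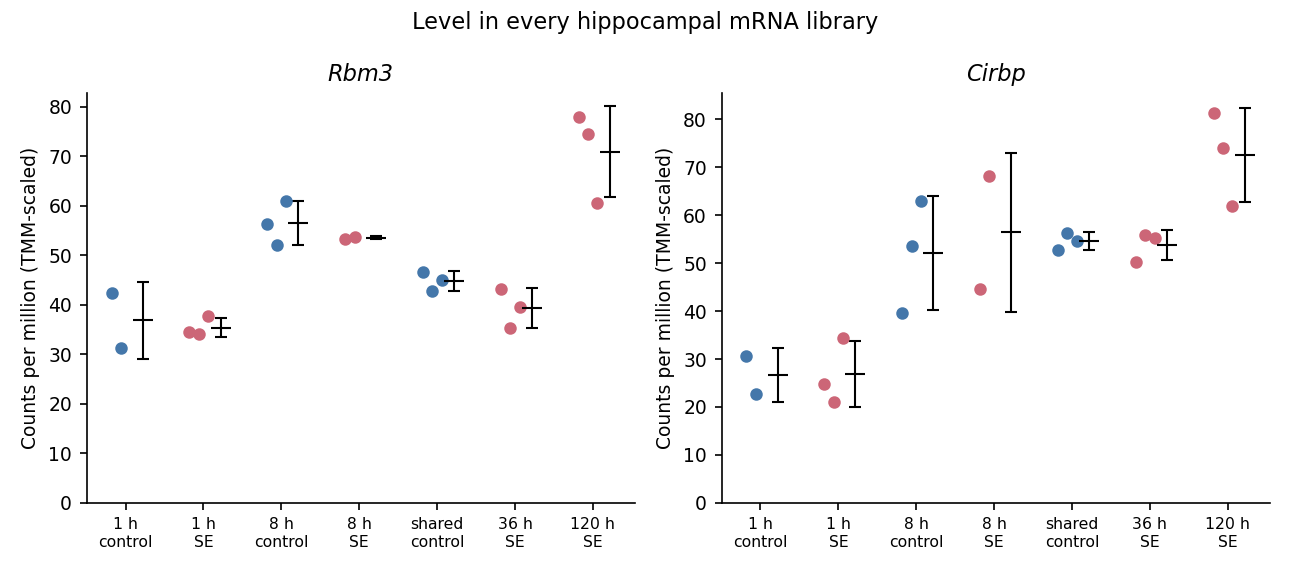
Rbm3 (left) and Cirbp (right) in each mRNA library, in TMM-scaled CPM, by group. Blue points are control mice, red points are SE mice, and the bar beside each group gives its mean and SD (n = 2 or 3). The 120 h SE mice sit between 60.6 and 77.9 for Rbm3 and between 62.0 and 81.4 for Cirbp, above all 3 shared controls.

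Ordered by mean, Rbm3 stood at 71.0 ± 9.18 CPM (SD, n = 3) in 120 h SE, 56.5 ± 4.45 in 8 h control (n = 3) and 53.6 ± 0.293 in 8 h SE (n = 2). It stood at 44.8 ± 1.95 in the shared control (n = 3), 39.4 ± 3.97 in 36 h SE (n = 3), 36.9 ± 7.80 in 1 h control (n = 2) and 35.4 ± 1.97 in 1 h SE (n = 3). Among neighbours in that order, ranges separated only between 8 h SE and the shared control. The lowest 120 h SE library, at 60.6 CPM, lay just under the highest 8 h control library, at 61.0 CPM, so the 120 h SE level was set apart from its own controls but not from every control mouse of the series. For Cirbp the order was 72.5 ± 9.78 CPM in 120 h SE (n = 3), 56.4 ± 16.6 in 8 h SE (n = 2), 54.6 ± 1.86 in the shared control (n = 3), 53.8 ± 3.16 in 36 h SE (n = 3) and 52.1 ± 11.8 in 8 h control (n = 3). The 1 h groups came last, with 26.8 ± 6.90 in SE (n = 3) and 26.7 ± 5.69 in control (n = 2), and this step from 8 h control was the only one between neighbours at which ranges did not overlap. The lowest Cirbp level in 120 h SE, at 62.0 CPM, lay under the highest in 8 h control, at 63.1, and in 8 h SE, at 68.1. Batch and time cannot be told apart for most of these groups. The single batch with controls at both early times, G511, had 42.4 CPM of Rbm3 and 30.7 CPM of Cirbp at 1 h and 56.4 and 39.6 CPM at 8 h (1 mouse each).

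At 120 h the log2 fold change of SE against control from edgeR's quasi-likelihood fit was 0.67 ± 0.09 for Rbm3, a 1.59-fold higher level, and 0.42 ± 0.09 for Cirbp, a 1.34-fold higher level. Errors of log2 fold changes, here and in what follows, are standard errors derived from the test. Each is the absolute log2 fold change over the square root of the quasi-likelihood F statistic. Errors of CPM are SDs. Among the 15996 genes tested, with a median log2 fold change of 0.01, these values lay at percentiles 97.8 and 94.3. Every SE library was above every control library at 6.33% of all genes tested. Both members belong to that share, from which nothing is read here because the comparison chose them. At 36 h the log2 fold changes were -0.16 ± 0.10 for Rbm3 and -0.00 ± 0.08 for Cirbp. They were -0.09 ± 0.16 and 0.11 ± 0.25 at 8 h, and -0.06 ± 0.16 and 0.01 ± 0.23 at 1 h. At these 3 earlier times the groups of both genes overlapped. In bulk tissue, more cells that express a gene and more RNA per cell cannot be told apart.

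Of the 120 h SE mice, replicate 3 had the lowest level of both genes. Its summed choroid plexus markers reached 6685 CPM against 65.7 and 78.3 CPM in the other SE mice, and it was the only 120 h SE library with Xist. Without it the log2 fold changes were 0.76 for Rbm3 and 0.51 for Cirbp. With each library left out in turn they ran from 0.61 to 0.76 and from 0.34 to 0.51. Their positive sign was given in advance, because the genes were chosen as higher at 120 h and every SE library lay above every shared control. Shared control replicates 2 and 3 also had Xist, and with sex read from Xist and Ddx3y as a covariate the log2 fold changes were 0.60 and 0.38. The part of choroid plexus RNA in these levels was not tested.

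The early changes were small beside the spread between mice. At 1 h the Rbm3 log2 difference was -0.17 in batch G511 and 0.13 in batch G369, and the Cirbp difference was 0.17 and 0.02. The sign of the Rbm3 change at 1 h turned with the control that was left out, from -0.27 without control replicate 2 to 0.17 without control replicate 1. In the same way Cirbp at 1 h ran from -0.21 without SE replicate 3 to 0.24 without control replicate 1, and at 8 h from -0.24 without SE replicate 2 to 0.39 without SE replicate 1. Within batch G317 at 8 h, which held 2 mice of each group, the differences were -0.07 for Rbm3 and -0.08 for Cirbp. The only 8 h library of batch G511 was a control, so that batch gives no difference at this time.

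**Figure D2:**
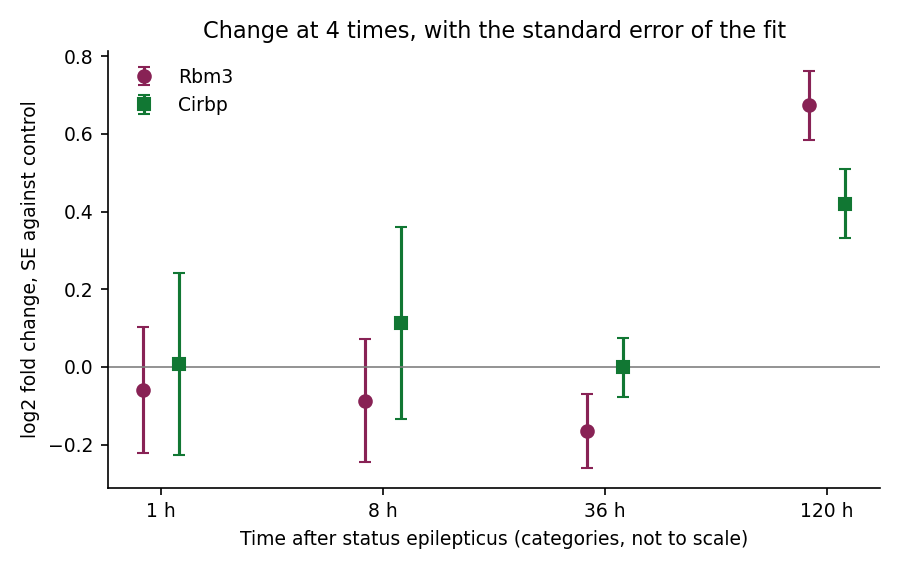
Log2 fold change of SE against control (vertical axis) for Rbm3 and Cirbp at the 4 times (horizontal axis, in categories), with the standard error derived from the edgeR F statistic as bars. Rbm3 lies at -0.06, -0.09, -0.16 and 0.67 and Cirbp at 0.01, 0.11, -0.00 and 0.42. The 36 h and 120 h points share their controls.

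The balance between the transcripts differed between batches as well as between groups. Per kilobase of exon in the GENCODE gene models, Rbm3 was below Cirbp in all 19 libraries, by 0.16 to 1.51 on the log2 scale. The lengths used join the exons of all transcripts, 4698 bases for Rbm3 and 2604 for Cirbp, and this order depends on them. By counts, Rbm3 was above Cirbp in every 1 h library and below it in every shared control and 36 h SE library. The ratio of Rbm3 to Cirbp counts, which needs no scaling of libraries, was 1.38 and 1.39 in the 1 h controls and 0.886, 0.758 and 0.823 in the shared controls. In 120 h SE it was 0.958, 1.00 and 0.977, above all 3 shared controls and with little spread, although the levels themselves ranged widely in this group. In 36 h SE it was 0.863, 0.632 and 0.716, overlapping the controls. By batch, the ratio ran from 1.09 to 1.61 in G511 and G369, from 0.789 to 1.19 in G317 and from 0.632 to 1.00 in G545, and only the last of these holds the 120 h libraries.

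Across the 19 libraries, with each library's log2 CPM taken relative to the mean of the controls it was compared with, Rbm3 and Cirbp had a Pearson r of 0.65 as a description. Both genes were chosen for being high in the same 3 libraries at 120 h, so a high r and near ranks follow in part from that choice. The points share library preparation and sequencing depth, and the late ones share controls. Cirbp ranked 24th of 17414 genes by likeness to Rbm3, and Rbm3 ranked 38th by likeness to Cirbp. Without centring on the controls the r was 0.76.

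**Figure D3:**
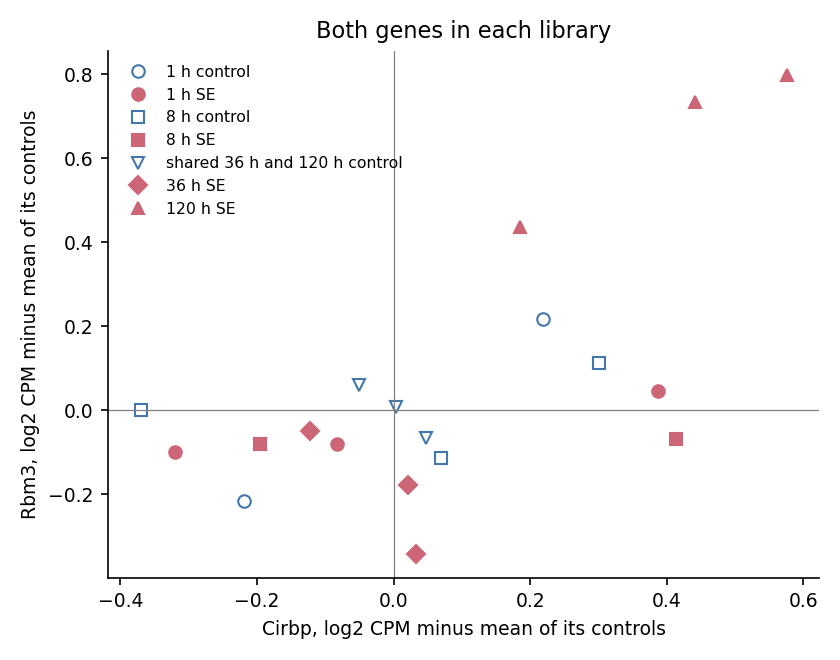
Rbm3 (vertical axis) against Cirbp (horizontal axis) in each library, both as log2 CPM minus the mean of the controls it was compared with. Open blue symbols are controls and filled red symbols are SE mice, with a shape for each time. The 120 h SE mice stand at 0.80, 0.73 and 0.44 for Rbm3 and at 0.58, 0.44 and 0.18 for Cirbp. The other libraries scatter around 0 on both axes, for Cirbp as far as 0.41, above the lowest 120 h SE mouse.

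The genes most like Rbm3 by that measure were Dbp (r = 0.82), Bhlhe41 (0.79), Gbas (0.74), Mfsd4 (0.74) and Tsc22d3 (0.74). Dbp encodes a transcription factor of clock output, Bhlhe41 a repressor in the clock, and Tsc22d3 a protein induced by glucocorticoids. At 120 h their log2 fold changes were 1.20 ± 0.08, 0.64 ± 0.09, 0.17 ± 0.06, 0.37 ± 0.13 and 0.55 ± 0.06. The 4 genes most like Cirbp were Zfp647 (0.79), Ctsf (0.78), Snapc4 (0.76) and ENSMUSG00000096544 (0.73). Ctsf encodes a lysosomal protease and Snapc4 a subunit of the complex that starts small nuclear RNA transcription. Their log2 fold changes at 120 h were 0.31 ± 0.21, 0.20 ± 0.05, 0.23 ± 0.06 and 0.33 ± 0.13. No gene was named for both members. All were picked by likeness to genes chosen as high at 120 h, so positive values at that time follow in part from the choice. Without centring, only 1 of the 5 genes stayed among the top 5 for Rbm3 and none of the 4 for Cirbp, so these ranks depend on that step.

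Genes with related roles were read from lists, each tested with edgeR's quasi-likelihood method and adjusted over the whole table. That test called 0.0799% of genes at 1 h, none at 8 h (0.00%), 0.0252% at 36 h and, at 120 h, 0.0563%. An unadjusted p under 0.05 was found at 4.39%, 9.47%, 7.89% and 9.60% of genes at these times. The only genes of the lists past the adjusted threshold of 0.05 at any time were Dbp and Nr1d1 at 120 h. The median log2 fold change of all genes lay between -0.01 and 0.01 at each time.

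Relatives with RNA recognition motifs included Rbmx, the Hnrnpa and Hnrnpd genes, the Musashi genes and Tial1. At 120 h they had smaller values than Rbm3 and Cirbp, which follows in part from choosing those genes as high at that time. Of 12 tested, 11 were higher on average, none passed, and their median was 0.06 on the log2 scale, with a range of -0.03 to 0.16. The smallest p values were those of Hnrnpa0, which binds AU-rich mRNA (63.9 ± 0.402 CPM in control and 71.1 ± 5.98 in SE, adjusted p = 0.466), Rbmx, a splicing factor (0.10 ± 0.06, adjusted p = 0.609), and Hnrnpa3 (0.09 ± 0.05, adjusted p = 0.660). The largest value of the list at any time was that of Hnrnpa0 at 8 h, from 64.7 ± 2.31 CPM in control (n = 3) to 121 ± 5.64 in SE (n = 2), a log2 fold change of 0.89 ± 0.14 whose adjusted p was 0.230. DESeq2 gave it an adjusted p of 3.69e-04, as the only one of the 12 it called at 8 h, against 0.128% of all genes called higher. Hnrnpd, which binds AU-rich mRNA as well (-0.37 ± 0.15, adjusted p = 0.505), and Msi1, a Musashi gene (-0.24 ± 0.26, adjusted p = 0.760), followed. At 1 h 4 of 12 were higher on average with a median of -0.04, and the smallest p values were those of Hnrnpa3 (0.30 ± 0.13), Rbmx (-0.27 ± 0.12) and Tial1 (-0.18 ± 0.10), each with an adjusted p of 0.999. At 36 h 7 of 12 were higher on average with a median of 0.06, and Hnrnpd (-0.14 ± 0.07), Msi2 (0.14 ± 0.09) and Hnrnpa3 (-0.13 ± 0.10) had adjusted p values of 0.662, 0.758 and 0.791.

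Regulators of splicing that respond to temperature were described next, since the CLK kinases and the SR proteins they phosphorylate change activity with small changes in body temperature. At 120 h, 9 of 11 were higher on average, none passed, and the median log2 fold change was 0.03. Srsf2, an SR protein, was at 127, 123 and 120 CPM in control and 144, 143 and 128 in SE (log2 fold change 0.18 ± 0.05, adjusted p = 0.367). Clk1, a kinase of SR proteins, was at 138, 115 and 130 CPM in control and 139, 152 and 139 in SE (0.17 ± 0.07, adjusted p = 0.492). The groups of both genes were separate, by a narrow margin for each, and every SE library lay above every control library at 6.33% of all genes. Clk4 came next (0.12 ± 0.08, adjusted p = 0.656). At 1 h Clk1 had its largest difference, from 163 and 171 CPM in control to 84.1, 103 and 96.1 in SE, a log2 fold change of -0.83 ± 0.11 with an adjusted p of 0.0761. DESeq2 (adjusted p = 2.11e-07) and the likelihood ratio test (4.77e-06) both called it, and it was the only one of the 11 that DESeq2 called at 1 h, against 0.0738% of all genes called lower. Srsf10 at 1 h was at 78.4 ± 2.18 CPM in control and 98.8 ± 3.74 in SE (adjusted p = 0.967), while Clk4 differed by -0.51 ± 0.17 on the log2 scale (adjusted p = 0.999). The medians were -0.09 at 1 h, 0.04 at 8 h and 0.00 at 36 h. The smallest p values at 8 h were those of Srsf7 (0.50 ± 0.21, adjusted p = 0.511), Clk2 (-0.20 ± 0.20) and Srsf2 (0.15 ± 0.16), and at 36 h those of Clk1 (-0.19 ± 0.11, adjusted p = 0.730), Clk2 (0.09 ± 0.08) and Srsf10 (0.13 ± 0.13).

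The heat shock genes lay on the opposite side at 120 h. Of 21 tested, 20 were lower on average in SE, and the log2 fold changes ran from -0.37 to 0.03 around a median of -0.16. Of the 21, 12 were lower at an unadjusted p under 0.05, against 5.06% of all genes, and at 15 every SE library was below every control library, against 9.10% of all genes. None passed the adjusted threshold of the quasi-likelihood test. DESeq2 called 4 of the 21 lower (Hsph1, Chordc1, Hspa8 and Stip1), against 0.631% of all genes. Many of these genes share a regulator, HSF1, and the list is not a set of independent measurements.

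Hsph1, a cytosolic chaperone of the Hsp110 family, was at 389, 418 and 374 CPM in the shared controls and 306, 293 and 310 in 120 h SE. All SE mice were lower and lay close together, including replicate 3. The log2 fold change was -0.37 ± 0.06, with an adjusted p of 0.144. Chordc1, a cochaperone of HSP90, was at 57.3, 65.0 and 62.1 CPM in control and 46.8, 48.5 and 50.5 in SE (-0.33 ± 0.07, adjusted p = 0.247). Hspa8, the constitutive Hsc70, was at 995, 1136 and 1000 CPM in control and 868, 862 and 840 in SE (-0.27 ± 0.07, adjusted p = 0.328). In these 3 genes the groups were separate, and SE replicate 3 was not set apart from the other SE mice. Hspa1a and Hspa1b, the strongly inducible Hsp70 genes, overlapped between groups (-0.03 ± 0.24 and -0.21 ± 0.23).

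At the earlier times the heat shock list was mixed. At 36 h 10 of 21 genes were higher on average and 11 lower, with a median of -0.03, and the smallest p was that of Hspb1 (3.00 ± 0.917 CPM in control and 5.65 ± 2.21 in SE, adjusted p = 0.551), followed by Hsp90aa1 (-0.15 ± 0.09) and Hspa4 (-0.09 ± 0.07). At 8 h the numbers were 10 and 11 with a median of -0.03, and Cryab, a small heat shock protein, had the smallest p (log2 fold change -0.76 ± 0.26, adjusted p = 0.495), followed by Stip1 (-0.50 ± 0.17) and Hspa8 (-0.37 ± 0.15). At 1 h 13 of 21 were higher on average with a median of 0.03, and Bag3, a cochaperone induced by stress, had the smallest p (9.87 ± 0.388 CPM in control and 15.1 ± 4.04 in SE, adjusted p = 0.999), followed by Dnajb1 (0.49 ± 0.23) and Hspb1 (0.65 ± 0.31). DESeq2 called none of the 21 at these 3 times. The 8 h values include control replicate 1, the only 8 h library of batch G511. Chordc1 was at 60.5 CPM in that control, 28.9 and 30.4 in the other controls, and 56.8 and 43.9 in SE. Hsph1 likewise had both SE mice below that control and above the other controls. Hspa8 was lower in both SE mice than in every 8 h control. The part of batch in the 8 h heat shock values was not tested.

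**Figure D4:**
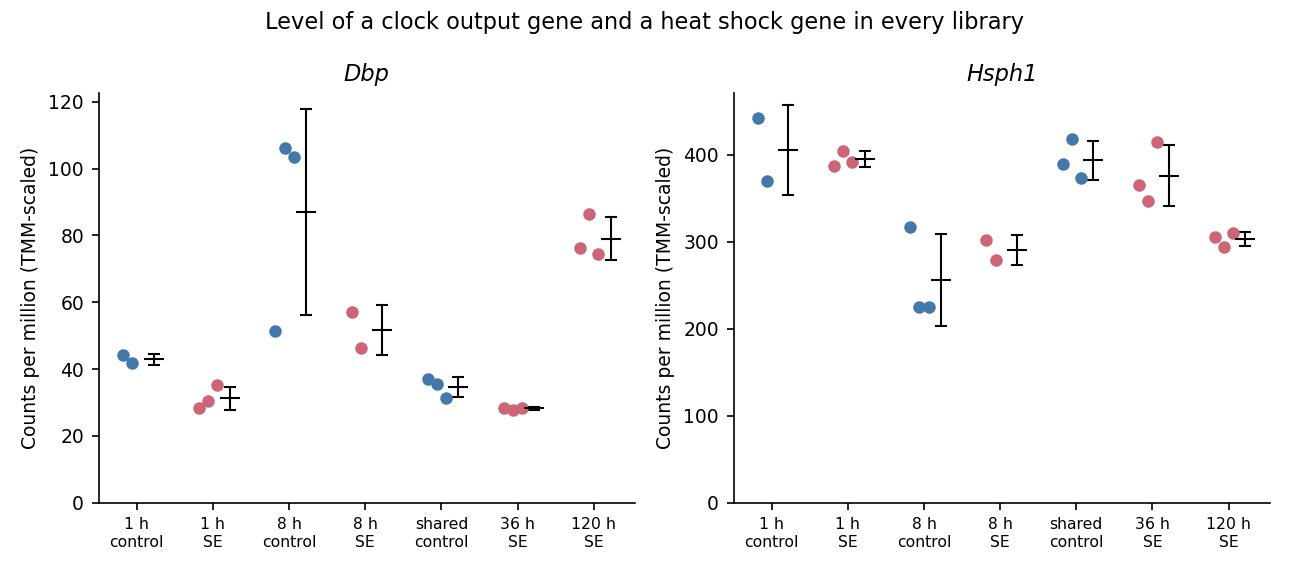
Dbp (left), a clock output gene, and Hsph1 (right), a heat shock gene, in each library, in TMM-scaled CPM. Blue points are controls, red points are SE mice and bars give mean and SD (n = 2 or 3). In 120 h SE, Dbp lies at 74.5 to 86.4, above the shared controls at 31.3 to 36.9, and Hsph1 at 293 to 310, below the shared controls at 374 to 418.

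The circadian clock list, included because Rbm3 and Cirbp follow daily temperature cycles, held both genes past the threshold. Dbp rose from 36.9, 35.7 and 31.3 CPM in the shared controls to 76.1, 86.4 and 74.5 in 120 h SE (log2 fold change 1.20 ± 0.08, adjusted p = 0.00402). Nr1d1, which encodes the repressor REV-ERBα, rose from 55.2, 67.2 and 55.3 CPM to 91.3, 103 and 99.0 (0.74 ± 0.09, adjusted p = 0.0461). The call for Nr1d1 was lost with the replicate number as a block (adjusted p = 0.0883), with sex read from Xist and Ddx3y as a covariate (0.110), with all 19 libraries in 1 fit (1) and with 5 of the 6 libraries left out in turn (0.0360 to 0.302 over all 6), and that for Dbp only with all 19 libraries in 1 fit (0.0846). In both, the SE mice were well apart from the controls, and replicate 3, lowest in Rbm3 and Cirbp, was not far from the other SE mice. The hour of day at which SE and control mice were collected is not given. SE and hour of day therefore cannot be told apart in the clock genes.

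Of the 22 clock genes tested at 120 h, 14 were higher and 8 lower on average, with a median of 0.06. At an unadjusted p under 0.05, 8 were higher against 4.54% of all genes and 2 were lower against 5.06%. DESeq2 called 7 higher, against 0.269% of all genes. Gm129 (Ciart), a clock repressor, had the next smallest p, with 8.10, 9.91 and 7.05 CPM in control and 19.3, 19.7 and 14.3 in SE (1.11 ± 0.16, adjusted p = 0.0868). Arntl (BMAL1), the activator that Nr1d1 represses, lay on the other side, with a log2 fold change of -0.39 ± 0.11 and an adjusted p of 0.345, and all 3 SE mice were below the controls. Per2 and Cry1, core repressors of the clock, had values near 0 (-0.02 ± 0.07 and 0.06 ± 0.11).

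Against the same controls at 36 h, where sex goes partly together with SE, no clock gene passed, and 14 of 22 were lower on average with a median of -0.06. At an unadjusted p under 0.05, 8 were lower against 2.60% of all genes and none was higher. DESeq2 called 3 of them lower (Hlf, Bhlhe40 and Per2), against 0.0757% of all genes. Hlf, a relative of Dbp, was at 103 ± 6.98 CPM in control and 73.7 ± 1.56 in SE (-0.47 ± 0.07, adjusted p = 0.143). Bhlhe40, a repressor, was at 99.8 ± 5.29 and 70.8 ± 6.73 CPM (adjusted p = 0.258), and Per2 at 44.3 ± 0.730 and 30.3 ± 4.33 CPM (adjusted p = 0.302). At 8 h the smallest p values were those of Rorb, a nuclear receptor (-0.84 ± 0.20, adjusted p = 0.419), Hlf (-0.49 ± 0.15, adjusted p = 0.478) and Cry1 (0.63 ± 0.22, adjusted p = 0.495), with a median of 0.01 over the list and no gene called by DESeq2. Nr1d1 was at 95.8 CPM in control replicate 1, the only 8 h library of batch G511, 206 and 236 in the other controls, and 117 and 94.8 in SE. In the same order Dbp was at 51.3, 106 and 104, and 57.0 and 46.4. The part of batch in these values was not tested. At 1 h the smallest p values were those of Gm129, from 8.34 and 8.48 CPM in control to 17.4, 40.5 and 39.6 in SE (adjusted p = 0.232), Bhlhe40 (0.61 ± 0.12, adjusted p = 0.280) and Per1 (0.96 ± 0.20, adjusted p = 0.356), and the median was -0.03. DESeq2 called these 3 genes higher at 1 h, against 0.314% of all genes.

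**Figure D5:**
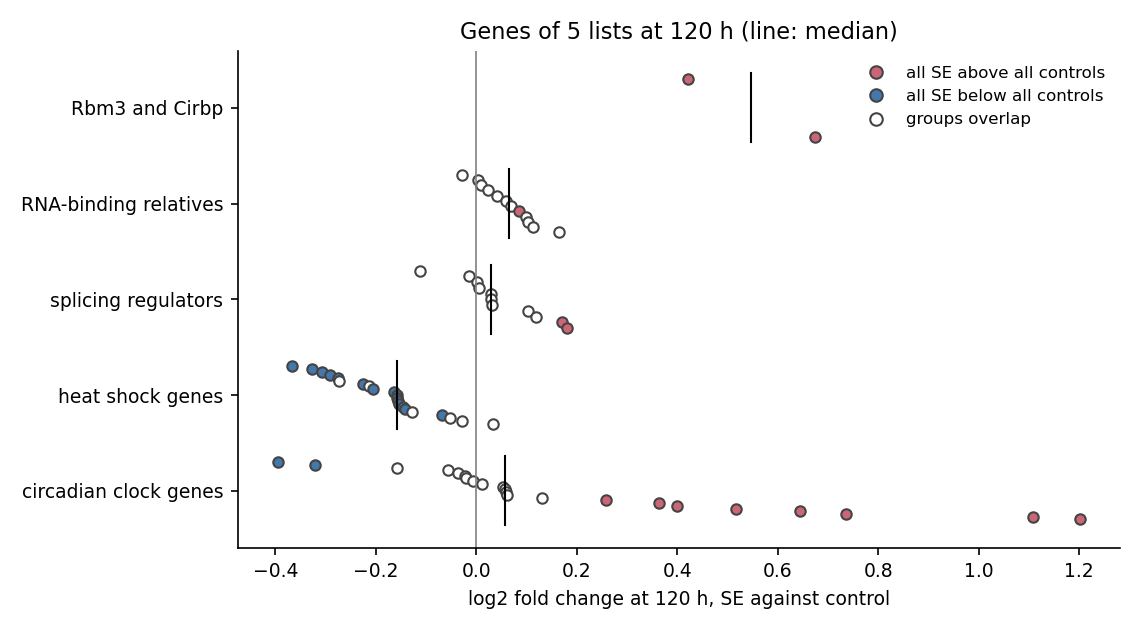
Log2 fold change at 120 h (horizontal axis) of every tested gene in 5 lists (rows), with a black line at each median. Red points are genes at which all SE libraries lay above all controls, blue points those at which all lay below, and open points those that overlapped. Rbm3 and Cirbp lie at 0.67 and 0.42, the heat shock genes have a median of -0.16, and the clock genes spread from -0.39 to 1.20.

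Genes described up- or downstream of Rbm3 or Cirbp, such as Trpv4, a channel linked to their induction, Rtn3, a target of RBM3, and the receptor components by which extracellular CIRBP is sensed, had no member past the threshold at any time. At 120 h 7 of 14 were higher and 7 lower on average, with a median of 0.03. Rpa2 and Atr, both of DNA damage signalling, were at 9.70 ± 0.617 and 14.8 ± 0.937 CPM in control and 11.4 ± 0.446 and 16.9 ± 0.522 in SE (adjusted p = 0.528 and 0.537). Trpv4 had the largest values of the list, with log2 fold changes of 3.69 ± 0.88 at 36 h and 2.80 ± 1.00 at 120 h (adjusted p = 0.352 and 0.446). It is also expressed in choroid plexus epithelium, whose summed markers spread from 62.7 to 7329 CPM in 36 h SE and from 65.7 to 6685 CPM in 120 h SE, and their part in the Trpv4 values was not tested. At 36 h Txn1, which encodes thioredoxin (0.13 ± 0.08), and Plcg1 (0.08 ± 0.07) followed Trpv4, around a median of 0.00. At 8 h the median was 0.10 and the smallest p values were those of Ly96, which encodes the MD-2 partner of TLR4 (-1.11 ± 0.65, adjusted p = 0.602), Rtn3 (-0.22 ± 0.14) and Plcg1 (0.22 ± 0.16). At 1 h the median was 0.07 and they were those of Trpv4 (0.62 ± 0.22, adjusted p = 0.999), Hif1a (0.24 ± 0.15) and Trem2 (-0.35 ± 0.29).

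Of the channels gated by temperature, 5 of 8 had enough counts at 120 h and none passed. Trpc5, a channel activated by cooling, was at 15.3 ± 1.17 CPM in control and 11.8 ± 0.698 in SE (log2 fold change -0.37 ± 0.11, adjusted p = 0.362), and Trpm2, a channel activated by warmth, at 39.3 ± 1.63 and 33.8 ± 1.36 CPM (-0.20 ± 0.07, adjusted p = 0.420), with Trpv4 next and a median of -0.11. The medians were -0.03 at 36 h and 0.16 at 8 h (5 genes each), and 0.20 at 1 h (6 genes). Trpc5 (-0.24 ± 0.17) and Trpm2 (-0.12 ± 0.14) followed Trpv4 at 36 h. Trpc5 (-0.48 ± 0.26), Trpv4 (0.55 ± 0.61) and Trpv2 (0.16 ± 0.22) had the smallest p values at 8 h, and Trpv4, Trpa1 (1.08 ± 0.90) and Trpv3 (0.35 ± 0.42) at 1 h. The genes beside the members on their chromosomes stayed near 0 at 120 h. Wdr13 and Tbc1d25, near Rbm3, had log2 fold changes of -0.09 ± 0.06 and -0.06 ± 0.12, and Midn and 1600002K03Rik, near Cirbp, had -0.02 ± 0.10 and -0.13 ± 0.25.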

How the data were processed

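Poly(A) RNA was sequenced in pairs of short reads from a stranded kit. Per the labels and the study's methods, the authors aligned with HISAT2 2.1.0 to NCBIM37 and deposited raw HTSeq counts per Ensembl gene. The identifiers run beyond the stated annotation release, so the annotation used for counting is uncertain. Symbols were found for 33068 of 43629 identifiers, and 150 of 151 listed symbols were found. No values of the small RNA libraries were used.

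Each time was fitted apart with edgeR 4.0.16 (R 4.3.3): TMM, filterByExpr, quasi-likelihood test and Benjamini-Hochberg adjustment over all genes tested (16264, 15610, 15850 and 15996 in order of time), with a threshold of 0.05. CPM values use TMM over all 19 libraries, and log2 CPM a prior count of 1. The labels number replicates, each read here as 1 mouse, without saying so outright. The p values weigh a difference between groups against the spread between these libraries. Depth was 8503816 to 28465548 counts per library. The fits were tested on simulated data. Alternatives were DESeq2 1.42.0, the likelihood ratio test, other scaling, filter, covariates and left-out libraries.

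The members and lists were chosen with earlier results of these data known. By rule, the text names the members in every library, listed genes past the threshold, those with the 3 smallest p values per list and time, and the 5 genes most like each member, of which 1 for Cirbp is not reported here. Genes shown outside that rule were named after their values were seen. They include Arntl, Per2 and Cry1 at 120 h, Chordc1, Hsph1, Dbp and Nr1d1 at 8 h, Hspa1a, Hspa1b and the neighbouring genes. Same-numbered libraries did not deviate together (correlations of -0.244 to 0.208), so numbers were not taken as pairs.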

Additional observations from a re-analysis of the deposited data

Results flagged for a closer look

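In some genes every SE mouse lay above the mean of its controls at one time and below it at another. The difference between the times was not tested, and 36 h and 120 h share their controls. The hour of day of collection is not given, so time after SE and hour of day cannot be told apart here. For Rbm3 the log2 fold change was -0.0871 at 8 h and -0.16 at 36 h, where all SE mice were below the control mean, and 0.67 at 120 h, where all were above. Nr1d1 was at -0.77 at 8 h and -0.24 at 36 h against 0.74 at 120 h. Dbp was at -0.46 at 1 h, -0.76 at 8 h and -0.27 at 36 h against 1.20 at 120 h. Cirbp did not show this, with SE mice on both sides of the control mean at 1 h, 8 h and 36 h. At 8 h the comparison rests on 2 SE mice, and control replicate 1 is of another batch than the other libraries. No group was large enough to be searched for a single outlying mouse.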

How the results depend on the processing

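The log2 fold changes of Rbm3 and Cirbp at 120 h ran from 0.60 to 0.67 and from 0.38 to 0.42 under the alternatives. The lower ends came with sex read from Xist and Ddx3y as a covariate (chosen after seeing the data). With a library left out they ran from 0.61 to 0.76 and 0.34 to 0.51. Their sign is no support, since the genes were chosen as higher at 120 h. Left-out libraries moved Rbm3 at 1 h from -0.27 to 0.17, at 8 h from -0.14 to -0.04 and at 36 h from -0.25 to -0.10, and Cirbp from -0.21 to 0.24, -0.24 to 0.39 and -0.03 to 0.04. Counts of genes past the threshold depended on the method. From 13, 0, 4 and 9, in order of time, they went to 69, 89, 125 and 76 by the likelihood ratio test, 63, 95, 101 and 144 by DESeq2, 328, 343, 141 and 52 with no filter, 55, 423, 10 and 0 with all 19 libraries in 1 fit, and 42, 31, 12 and 1 with the replicate number as a block. Batch as a covariate gave 2111 at 8 h, sex gave 0 at 36 h, and sex read from Xist and Ddx3y gave 0 at 36 h and 1 at 120 h. With a library left out they ranged over 3 to 53, 0 to 2065, 0 to 469 and 1 to 3. The cause was not tested. At 8 h, where none passed the quasi-likelihood test, 1478 genes had an unadjusted p under 0.05. Dbp at 120 h lost the threshold with all 19 libraries in 1 fit (adjusted p = 0.0846), and kept it with each library left out (0.00528 to 0.0455). Nr1d1 lost it there (1), with the block (0.0883), with sex from Xist and Ddx3y (0.110) and without most libraries (0.0360 to 0.302). Of the 21 heat shock genes, 18 to 20 were lower on average with a library left out and 20 without 120 h SE replicate 3, while the 12 at an unadjusted p under 0.05 became 11 without that replicate and 3 with all 19 libraries in 1 fit. Clock genes past the threshold numbered 0 to 7.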

Other observations

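Among the 3 control mice of 8 h, replicate 1, the only one of batch G511, stood apart in several genes of the lists. It had the lowest Cirbp, at 39.6 CPM against 53.7 and 63.1, and the lowest Dbp, at 51.3 CPM against 106 and 104. Nr1d1 was at 95.8 CPM against 206 and 236. The heat shock gene Chordc1 was higher, at 60.5 CPM against 28.9 and 30.4. Rbm3, at 56.4 CPM, lay between the other controls, at 52.1 and 61.0. These values were chosen after they were seen, and batch and mouse cannot be told apart here.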
